A study of Homo sapiens with 5 samples.

Results

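Keratin and desmosome genes were examined in SW480 cells, a long-established line from a human colon carcinoma and so of epithelial origin, with and without knockdown of the scaffold gene AKAP12. The set held 10 listed genes of the 26485 in the count files: the keratins KRT8, KRT18, KRT19 and KRT80, the desmosomal cadherins DSG2 and DSC2, and the plaque proteins DSP, JUP, PKP2 and PKP3. They were listed by name and not filtered on their values, but with earlier results of these data known. Both groups of cells carried dCas9-KRAB, a nuclease-dead Cas9 joined to a repressor domain that lowers transcription where a guide RNA directs it. The 2 control libraries came from cells given control guides and the 3 knockdown libraries from cells given guides against AKAP12. In the sample titles, and in a sample field named shRNA, the groups are shControl and shAKAP12, which name short hairpin RNA instead. The description given here is that of the treatment protocol. RNA was taken 48 hours after seeding. The labels say nothing about clonality of the line, nor whether the replicates came from different cultures. The p-values therefore cover only the spread among these libraries, which may be technical.

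Keratins are intermediate filament proteins that assemble as pairs of one type I chain (KRT18, KRT19) and one type II chain (KRT8, KRT80). KRT8 with KRT18 is the basic pair of simple epithelia such as the intestinal lining. Filaments are anchored at desmosomes, where the cadherins desmoglein and desmocollin bind neighbouring cells. Plakoglobin (JUP) and the plakophilins (PKP) sit on the cadherin tails, and desmoplakin (DSP) ties this plaque to the keratins.

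Sequence upstream of 3 desmosome genes is given because DSG2 and DSP lay below both controls in every knockdown library and JUP lay above both. The bases are those before the first exon in the count files, from RefSeq promoter windows (GRCh38.p14, 250 bases before to 50 after a start). Capitals mark CAGGTG or its reverse complement CACCTG, the E-box letters recognised by the epithelial repressors of the SNAI and ZEB families.
DSG2, chr18:31497927-31498063, plus strand: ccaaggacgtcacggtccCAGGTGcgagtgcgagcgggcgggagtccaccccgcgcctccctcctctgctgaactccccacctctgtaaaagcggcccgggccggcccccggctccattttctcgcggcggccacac
DSP, chr6:7541421-7541636, plus strand: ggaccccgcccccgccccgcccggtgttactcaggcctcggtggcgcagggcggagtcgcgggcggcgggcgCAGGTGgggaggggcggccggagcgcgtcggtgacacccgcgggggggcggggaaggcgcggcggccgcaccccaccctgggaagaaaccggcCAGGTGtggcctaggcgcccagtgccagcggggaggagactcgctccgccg
JUP, chr17:41786713-41786961, minus strand: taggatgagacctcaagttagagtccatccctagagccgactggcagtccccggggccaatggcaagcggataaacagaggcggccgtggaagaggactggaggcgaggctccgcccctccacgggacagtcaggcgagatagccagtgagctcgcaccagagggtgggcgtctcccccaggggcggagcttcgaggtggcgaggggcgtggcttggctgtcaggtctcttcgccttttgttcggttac

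The table held 7 windows for 5 of the 10 genes (DSG2, DSC2, DSP, JUP and KRT8). Of these, 4 held the motif on either strand (DSG2 2 matches, 1 of them in the stretch shown, DSP 2, and 1 window each of DSC2 and JUP), against 20.6% of all 35116 windows of this length. The window of the first start of JUP, shown above, held none, but its other window, which lies within the gene, held 2. The stretch of DSC2 before its first exon, not shown, held 1, and the DSC2 groups overlapped. The stretches shown therefore do not separate genes that fell from genes that rose. A match is a description of letters and not of binding.

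Reads came from the 3′ ends of polyadenylated RNA, and library totals ran from 4935096 to 9311026 counts. Across genes, Pearson's r of log2 CPM was 0.98 for each knockdown pair but 0.90 for the control pair. Control 2 was nearer to the knockdown libraries (r of 0.92 to 0.93) than to control 1. With the same knockdown libraries, control 1 had an r of 0.79 to 0.81. The share of counts in genes with under 300 exon bases was 8.78% in control 1, 1.94% in control 2 and 0.609% to 0.925% in the knockdown. TERT, the telomerase gene, held 7.43% of the counts of control 1 and 3.54% of those of control 2, but 0.0451% to 0.249% with the knockdown, so 1 alternative fit left out TERT and these short genes. AKAP12 itself was at 2870 and 1550 CPM (TMM-scaled read counts relative to library size, on the usual CPM scale) in the controls. In the knockdown it was at 1159, 1063 and 1008 CPM, and its log2 fold change of -1.04 (SE 0.31) missed the threshold (edgeR adjusted p = 0.0513). It was -0.52 without control 1 and -1.42 without control 2, and with either control alone it passed (edgeR adjusted p = 0.00397 and 1.09e-08), as it did by DESeq2 (-1.09, adjusted p = 0.0114). As to the cell type, KRT18 and the epithelial adhesion gene EPCAM (82.1 to 168.5 CPM) were present in each library, whereas E-cadherin (CDH1, 1.23 to 7.59 CPM) and the brush border gene VIL1 (0.717 to 3.43 CPM) were low. A count of 0 allows up to 0.307 to 0.735 CPM, depending on the library. Of 16 markers of stromal and blood cells, 15 passed the low-count filter and none was at 0 in every library. Summed, they reached 469 CPM in control 1 and 670 CPM in control 2, and 616, 705 and 623 CPM with the knockdown, and their part in the results was not tested. Of the 15, 1, the macrophage gene CD68, fell (log2 fold change -0.96, edgeR adjusted p = 0.0377), against 22.6% of all genes called in either direction. In bulk RNA, fewer cells of a type and less RNA per cell cannot be told apart.

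All 10 genes passed the filter. KRT8 rose 3.44-fold in the knockdown, while PKP3 and DSG2 fell 3.11-fold and 2.71-fold, and the other 7 did not pass the threshold of 0.05 on the adjusted p of edgeR. Thus 3 of 10 were called, against 22.6% of the 14536 genes tested, and the groups did not overlap in 6 of 10, against 60.1% of genes tested. The second share is that of all genes. The median log2 fold change was 0.04 for the 10 genes and 0.04 for all tested genes. Over all genes 1624 were higher and 1658 lower. With library size as the only scaling, the split was 1668 higher and 982 lower and fold changes moved up by a median of 0.20. Without any one of the knockdown libraries edgeR called 0 of the 10 genes and 0 genes in all, where 3 of the 10 and 3774 to 4109 in all had an unadjusted p under 0.05. This holds for every call named below. With a control left out, edgeR called 4 (without control 1, against 37.3% of all genes) or 7 (without control 2, against 58.1%). DESeq2 called 4 (against 30.6%), limma-voom 2 (21.1%), the fit without a filter 3 (16.9%), that with RLE scaling 3 (23.2%), that scaled by library size 2 (18.2%), the stricter filter 3 of 8 tested (29.0%), and the fit without TERT and short genes 3 (22.9%). Fits with 1 control take their spread from the knockdown libraries and assume that the lone control varies like them. The calls without control 2 include DSC2 and JUP, which had only 0 and 3 reads in control 1.

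**Figure D1:**
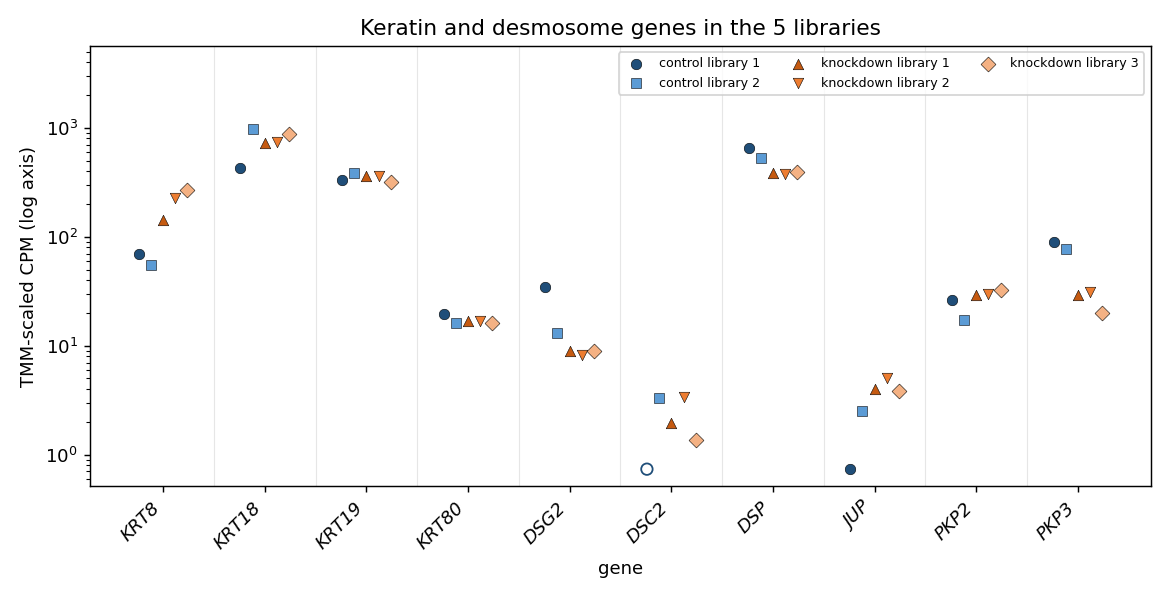
Level of each of the 10 genes in the 2 control and 3 knockdown libraries, as TMM-scaled CPM on a log axis, 1 point per library. The open circle marks 0 reads, drawn at the limit that a count of 0 allows. KRT8 is above both controls in each knockdown library, PKP3 and DSP are below both, and the KRT18 groups overlap.

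KRT8, the type II keratin of simple epithelia (chromosome 12, 52897187 to 52949866, minus strand, hg38), was at 69.1 and 54.9 CPM in the control libraries and 142.8, 227.3 and 268.4 CPM with the knockdown. Every knockdown library lay above the higher control. In CPM, though not in log2 CPM, the knockdown libraries differed among themselves by more than the lowest differed from that control. Its log2 fold change was 1.78 (SE 0.32, edgeR adjusted p = 0.0195). It was 1.95 without control 1 and 1.62 without control 2, so KRT8 depended little on the difference between the controls. Without a knockdown library it was 1.58 to 2.00, with edgeR adjusted p values of 0.0842 to 0.133.

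KRT18, the type I partner of KRT8 (chromosome 12, 52948871 to 52952901, plus strand), was at 427.4 and 983.6 CPM in the control libraries and 730.3, 734.4 and 878.7 CPM with the knockdown. All 3 knockdown values lay between the controls. On the log2 scale the fold change was 0.15 (SE 0.36, edgeR adjusted p = 0.787), and its sign depended on the control kept, at -0.33 without control 1 and 0.86 without control 2. Exons of KRT8 and KRT18 share 135 bases on opposite strands (52949456 to 52949590), which is 5.96% of KRT8 and 8.80% of KRT18 exon sequence. Reads there were counted for both genes. The shared bases lie 3311 bases from the 3′ end of KRT18 and 52269 bases from that of KRT8, at the 5′ side of each gene, while the library method reads 3′ ends. KRT18 has processed copies in the genome: of 351 windows of 50 bases in the last 400 bases of its longest coding transcript (GENCODE), 41 also occur in KRT18P10 or KRT18P13, so its counts are less certain there. For KRT8 0 of 351 windows occurred in another gene, and for KRT19 6 did, in KRT19P1. Only exact matches to the end of 1 transcript per gene were sought, so this does not show that KRT8 lacks copies. The pseudogene KRT8P41 had 2 reads in control 1, 1 in knockdown 1 and 0 in the other libraries.

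KRT19, a type I keratin without the usual tail domain (chromosome 17, 41523617 to 41528389, minus strand), was at 335.1 and 387.5 CPM in the control libraries and 360.7, 360.0 and 315.4 CPM with the knockdown. The groups overlapped (log2 fold change -0.07, SE 0.20, edgeR adjusted p = 0.828). KRT80, a type II keratin (chromosome 12, 52168996 to 52192000, minus strand), was at 19.4 and 16.1 CPM against 16.8, 16.7 and 16.0 CPM. Its groups also overlapped (log2 fold change -0.09, SE 0.23, edgeR adjusted p = 0.778). Both signs turned with library size as the only scaling (0.14 and 0.12). Summed over the 4 keratins, the controls reached 851 and 1442 CPM and the knockdown libraries 1251, 1338 and 1478 CPM, and the sums of the groups overlapped.

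DSG2, the desmoglein of simple epithelia (chromosome 18, 31498064 to 31548851, plus strand), was at 34.8 and 12.96 CPM in the control libraries and 8.91, 8.17 and 8.85 CPM with the knockdown. The knockdown libraries lay close together and below both controls, and control 1 stood far above control 2. Fitted over all libraries, the log2 fold change was -1.44 (SE 0.41, edgeR adjusted p = 0.0479). It was -0.58 without control 1 (edgeR adjusted p = 0.0862) and -2.01 without control 2, and the call was also lost by limma-voom (-1.17, adjusted p = 0.0874) and with library size only (-1.18, edgeR adjusted p = 0.0684). DSG2 shares 171 exon bases with the antisense gene DSG2-AS1, and reads from the pair cannot be told apart there. The shared bases lie 2945 bases from the 3′ end of DSG2 and 3590 bases from that of DSG2-AS1. DSG2 had 142 and 113 reads in the control libraries and 87, 61 and 72 with the knockdown. For DSG2-AS1 these were 31 and 53 against 22, 10 and 11. How many reads fell on the shared bases was not tested. DSG2-AS1 was at 7.59 and 6.08 CPM in the control libraries and 2.25, 1.34 and 1.35 CPM with the knockdown, a fall of 4.05-fold (log2 fold change -2.02, SE 0.42, edgeR adjusted p = 0.0237).

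DSC2, the desmocollin partner of DSG2 (chromosome 18, 31065974 to 31102432, minus strand), was scarce, with 0 and 29 reads in the control libraries and 19, 25 and 11 reads with the knockdown. Its level was 3.33 CPM in control 2 and 1.95, 3.35 and 1.35 CPM in the knockdown, which overlapped. A count of 0 in control 1 allows up to 0.735 CPM. The ratio of pooled reads, knockdown over control, was 0.957 with an exact 95% counting interval of 0.5998 to 1.56. No difference was detectable, and this interval leaves out the difference between the controls, with 0 and 29 reads. Against control 1 alone the knockdown was at least 2.95-fold higher, with 3 reads taken as the limit for the control and no error allowed on the knockdown reads. Against control 2 alone the ratio was 0.652 (0.409 to 1.06).

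DSP, the plaque protein that binds keratin filaments (chromosome 6, 7541637 to 7586713, plus strand), had the highest CPM of the 6 desmosome genes. It was at 655.0 and 527.3 CPM in the control libraries and 387.0, 374.3 and 396.3 CPM with the knockdown. All knockdown values lay close together and below both controls. Its log2 fold change of -0.62 (SE 0.20) missed the threshold (edgeR adjusted p = 0.0689), and it was -0.66 by DESeq2 (adjusted p = 0.0297). It was -0.45 without control 1 and -0.77 without control 2, and passed with either control alone (edgeR adjusted p = 0.0103 and 4.02e-05).

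JUP, a relative of beta-catenin that serves desmosomes and adherens junctions (chromosome 17, 41754607 to 41786712, minus strand), had few reads: 3 and 22 in the control libraries and 39, 38 and 31 with the knockdown. As levels these were 0.735 and 2.52 CPM against 3.99, 5.09 and 3.81 CPM, without overlap. The log2 fold change was 1.27 (SE 0.54, edgeR adjusted p = 0.129). The ratio of pooled reads was 2.18 (exact 95% counting interval 1.40 to 3.52), 1.69 without control 1 (1.06 to 2.80) and 5.79 without control 2 (1.93 to 28.5).

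PKP2 and PKP3 are plakophilins, armadillo-repeat proteins of the plaque. PKP3 (chromosome 11, 392599 to 404908, plus strand) was at 89.2 and 76.4 CPM in the control libraries and 29.0, 30.9 and 19.8 CPM with the knockdown. The controls were close to each other and well above each knockdown library. The log2 fold change was -1.64 (SE 0.25, edgeR adjusted p = 0.0158), and it was -1.52 without control 1 and -1.75 without control 2. Without a knockdown library it was -1.76 to -1.46, with edgeR adjusted p values of 0.0895 to 0.127. PKP2 (chromosome 12, 32790746 to 32896846, minus strand) was at 26.5 and 17.3 CPM against 28.9, 29.7 and 32.3 CPM. Its knockdown values lay above both controls, but the log2 fold change of 0.48 (SE 0.26) did not pass (edgeR adjusted p = 0.203) and was 0.81 without control 1 (edgeR adjusted p = 0.00358) and 0.19 without control 2. Summed over the 6 desmosome genes, most of it DSP, the level was 806 CPM in control 1 and 640 CPM in control 2, and 458 ± 5.60 CPM (SD, n = 3) in the knockdown, with no overlap.

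**Figure D2:**
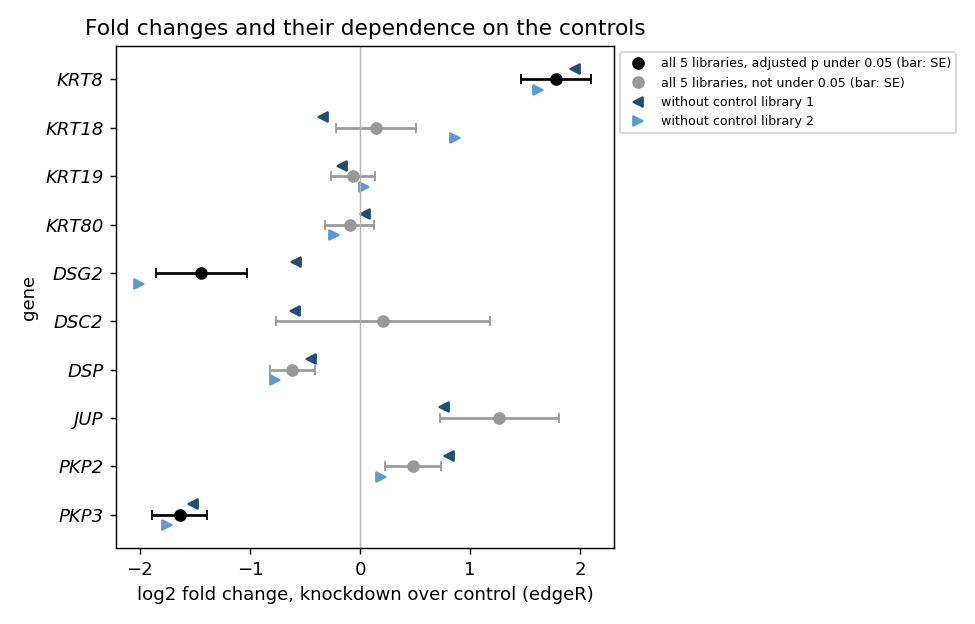
Log2 fold change of each gene, knockdown over control, from edgeR with all 5 libraries (circles, bars ± SE, black where the adjusted p was under 0.05) and with either control left out (triangles). KRT8 and PKP3 keep nearly the same value with either control, whereas DSG2 runs from -0.58 to -2.01 and KRT18 changes sign. Values without control 2 are not drawn for DSC2 and JUP, which had 0 and 3 reads in control 1.

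Divided by exon length, the order of levels in the controls was KRT18 (278.5 and 640.8 CPM per kb), KRT19 (227.8 and 263.5), DSP (67.3 and 54.2), then KRT8 (30.5 and 24.2) and PKP3 (30.2 and 25.9), which did not differ beyond their spread. PKP2, KRT80 and DSG2 followed within 2.29 to 6.15 CPM per kb, again with overlap, and JUP and DSC2 were at or below 0.719 CPM per kb. In the knockdown KRT8 (63.1, 100.3 and 118.5 CPM per kb) stood above DSP (39.8, 38.5 and 40.7) on this scale, whereas in CPM, not divided by length, DSP was the higher in every library. PKP3 (9.81, 10.5 and 6.70) overlapped PKP2 (6.50, 6.70 and 7.28) in CPM per kb. Because 3′ end libraries give reads near the transcript end, long genes such as DSP are understated on this scale.

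Ratios of partner genes within a library do not depend on the scaling between libraries. KRT8 had 0.162 and 0.0559 reads per KRT18 read in the control libraries and 0.196, 0.310 and 0.305 with the knockdown. The mean log2 ratio was 1.48 higher in the knockdown, 0.71 without control 2 and 2.24 without control 1. PKP2 had 0.297 and 0.227 reads per PKP3 read in the control libraries and 0.997, 0.961 and 1.63 with the knockdown, so that PKP2 was the scarcer of the pair in the controls and about level with PKP3 or above it in the knockdown. This log2 difference was 2.16, and it stayed between 1.92 and 2.36 with each library left out in turn. JUP had 0.00112 and 0.00479 reads per DSP read in the control libraries and 0.0103, 0.0136 and 0.00962 with the knockdown, a log2 difference of 2.25 that was 1.21 without control 1 and 3.30 without control 2. In these 3 pairs the groups did not overlap. An exact two-sided permutation test gave p = 0.1 for each, the smallest that 2 against 3 libraries allow, and 0.133 after adjustment over the 4 pairs. DSG2 over DSC2, with 0.5 added to each count, overlapped between groups (exact permutation p = 0.3, adjusted 0.3), and its log2 difference of -3.02 was 0.09 without control 1.

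**Figure D3:**
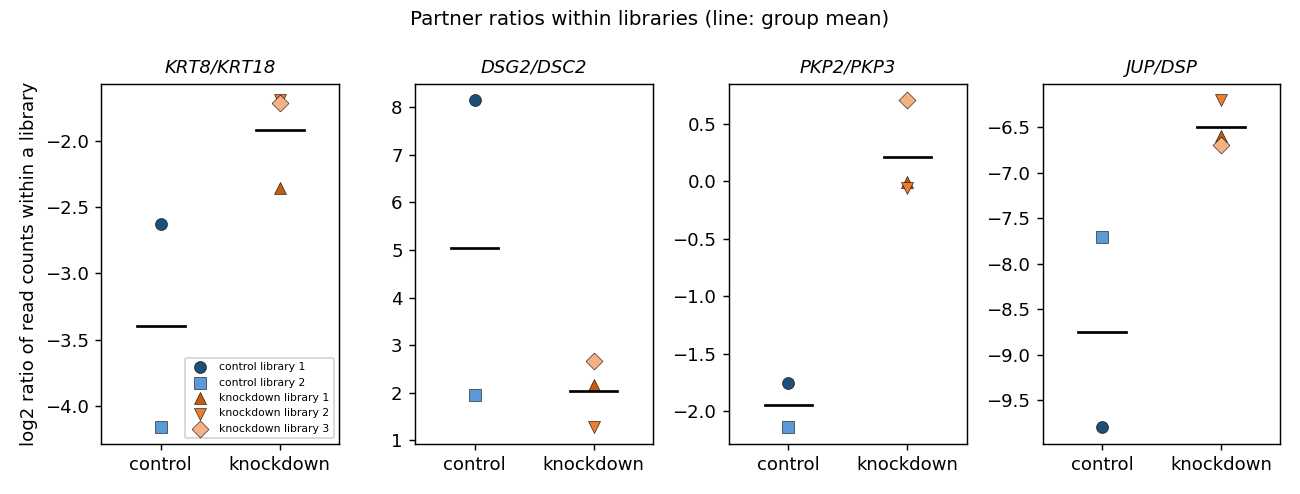
Log2 ratio of read counts of 2 partner genes within each library, 1 point per library, with a line at each group mean, for KRT8/KRT18, DSG2/DSC2, PKP2/PKP3 and JUP/DSP. Each panel has its own axis. The groups separate for KRT8/KRT18, PKP2/PKP3 and JUP/DSP, and control 1, where DSC2 had 0 reads, stands apart for DSG2/DSC2.

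Beyond the 10 genes, the files list 58 other keratin genes and pseudogenes, of which 16 passed the filter and 19 had no read in any library. Of the 16, 2 rose (KRT10 and KRT5) and 4 fell (KRT75, KRT81, KRT6B and KRT37), against 22.6% called over all genes, with a median log2 fold change of -0.55. Without control 1 the counts were 3 higher and 4 lower of 17 (37.3% of all genes called), without control 2 they were 5 and 6 of 17 (58.1%), and with library size only 1 and 2 of 16 (18.2%). KRT10, a type I keratin of the suprabasal epidermis, was at 16.2 and 34.2 CPM in the control libraries and 115.4, 130.2 and 146.4 CPM with the knockdown, a rise of 5.13-fold (log2 fold change 2.36, SE 0.35, edgeR adjusted p = 0.0153, 1.93 without control 1 and 3.01 without control 2). The knockdown libraries were all far above the higher control. KRT10 shares 70 exon bases with the opposite-strand gene TMEM99, 975 bases from its 3′ end. KRT5, a type II keratin of basal epithelial cells, was at 106.6 and 278.9 CPM in the control libraries and 561.7, 510.8 and 724.0 CPM with the knockdown (log2 fold change 1.63, SE 0.43, edgeR adjusted p = 0.0388). KRT5 had more reads than KRT8 in each library, with exon lengths of 2303 and 2265 bases. Its change was 1.10 without control 1 and 2.48 without control 2, and it missed the threshold with library size only (edgeR adjusted p = 0.0537). KRT14, the usual type I partner of KRT5, had 0 reads in every library.

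KRT75, a keratin of hair follicles, fell from 202.6 and 80.9 CPM to 34.9, 28.4 and 27.7 CPM (log2 fold change -2.22, SE 0.38, edgeR adjusted p = 0.0181, -1.41 without control 1). The controls differed widely from each other, and both lay above every knockdown library. KRT81, a hair keratin, fell from 75.2 and 63.4 CPM to 42.3, 29.9 and 27.3 CPM (log2 fold change -1.06, edgeR adjusted p = 0.0308, and 0.0571 with library size only). KRT37 was just inside the threshold (log2 fold change -1.34, edgeR adjusted p = 0.04999) and missed it by limma-voom (adjusted p = 0.0529), without a filter (edgeR adjusted p = 0.0704), with library size only (0.0791) and without control 1 (0.0762). KRT6B, a keratin of stressed epidermis, had 12 and 17 reads in the control libraries and 2, 0 and 3 with the knockdown, a ratio of 0.0870 (exact 95% counting interval 0.0263 to 0.227). Its near copy KRT6A, with 0 and 11 against 34, 14 and 25 reads, was not called (edgeR adjusted p = 0.152), so their reads ran in opposite directions. KRT20, a keratin of differentiated intestinal cells, had 4 reads in knockdown 3 and 0 in the other libraries.

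**Figure D4:**
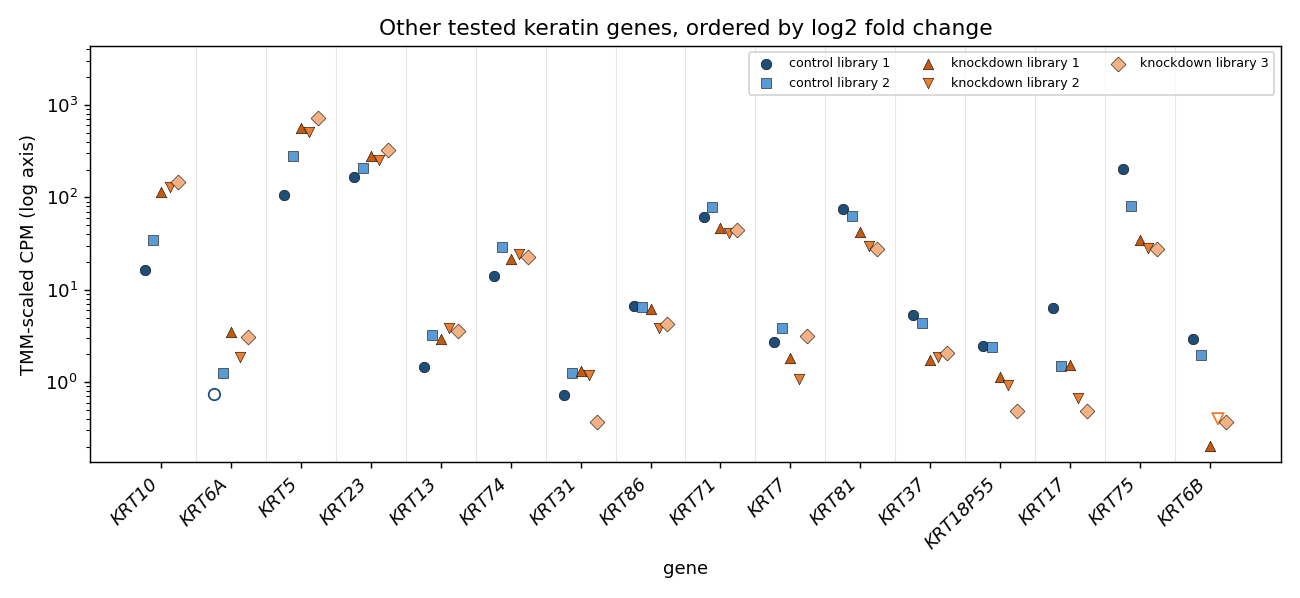
Level of the 16 other keratin genes that passed the filter in each library, as TMM-scaled CPM on a log axis, ordered from the highest to the lowest log2 fold change. Open symbols mark 0 reads, drawn at the limit that a count of 0 allows, which lies above the level of 1 or 2 reads. KRT10 and KRT5 are above both controls in the knockdown libraries, and KRT75 and KRT81 are below both.

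Of 11 further desmosome and cornified envelope genes, 6 were tested, of which 1 rose and 2 fell, against 11.2% higher and 11.4% lower over all genes. PERP, a tetraspan membrane protein of desmosomes, rose from 22.1 and 31.8 CPM to 52.8, 56.7 and 67.1 CPM (log2 fold change 1.12, SE 0.25, edgeR adjusted p = 0.0274). CDSN, corneodesmosin, was at 7.59 and 3.79 CPM against 0.717, 1.74 and 1.23 CPM (log2 fold change -2.18, edgeR adjusted p = 0.0353). EVPL, envoplakin, was at 23.8 and 9.75 CPM against 6.86, 6.03 and 5.16 CPM (log2 fold change -1.45, edgeR adjusted p = 0.0473), with control 1 high as for DSG2. Both calls were lost without control 1 (CDSN -1.64, edgeR adjusted p = 0.0502; EVPL -0.69, edgeR adjusted p = 0.0845) and with library size only (0.0501 and 0.0686), and that of EVPL also by limma-voom (adjusted p = 0.0787). The fourth plakophilin, PKP4, did not pass (log2 fold change -0.37, edgeR adjusted p = 0.243).

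Plakins and hemidesmosome genes, which link filaments to other anchors, had 0 higher and 2 lower of 9 tested, a share called near the 22.6% of all genes. Their median log2 fold change was -0.62, against 0.04 over all genes. DST, dystonin, fell from 229.0 and 194.6 CPM to 107.6, 120.9 and 106.1 CPM (log2 fold change -0.92, SE 0.19, edgeR adjusted p = 0.0234). MACF1 was at -0.74 (edgeR adjusted p = 0.0485, 0.0969 with library size only and 0.0611 without a filter). Plectin (PLEC, -0.56, edgeR adjusted p = 0.0629) and LAMA3 (-1.15, 0.0672) did not pass in this fit. Both passed by DESeq2 (adjusted p = 0.0276 and 0.0355). DESeq2 called 0 higher and 5 lower of 9 (30.6% of all genes called), and edgeR with the stricter filter 0 and 3 of 9 (29.0%). In this list the groups did not overlap in 7 of 9 genes, against 60.1% of genes tested. Its counts were 0 higher and 5 lower of 10 without control 1 (37.3% of all genes called), 0 and 7 of 9 without control 2 (58.1%), and 0 and 1 with library size only (18.2%).

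Of 7 adherens junction genes in the files 1 was called, against 22.6% of all genes. CTNNB1 rose from 41.4 and 142.3 CPM to 400.6, 418.8 and 422.9 CPM (log2 fold change 2.17, SE 0.50, edgeR adjusted p = 0.0290, 1.54 without control 1 and 3.32 without control 2). CTNNB1 encodes beta-catenin, the relative of plakoglobin. The other 6 did not pass, CDH1 among them (-1.12, edgeR adjusted p = 0.270, -0.09 without control 1 and -1.82 without control 2). Of 14 tight junction genes tested, 1 rose and 0 fell, against 22.6% of all genes called. This was CLDN12 (log2 fold change 1.64, edgeR adjusted p = 0.0307), which was at 1.24 when control 1 was left out and at 2.40 when control 2 was. CLDN1 was at 18.6 and 2.98 CPM in the control libraries and 1.43, 2.41 and 1.23 CPM with the knockdown (log2 fold change -2.62, edgeR adjusted p = 0.0505), and -0.82 without control 1.

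Among 9 other intermediate filament genes 2 rose and 0 fell, a share near the 22.6% of all genes called. Both encode lamins, the filament proteins of the nucleus: LMNB2 rose from 45.6 and 56.8 CPM to 140.2, 148.4 and 141.3 CPM (log2 fold change 1.48, SE 0.20, edgeR adjusted p = 0.0140), and LMNA by 0.69 (edgeR adjusted p = 0.0459, 0.0526 with RLE scaling and 0.0577 without a filter). LMNB1, the other tested lamin, was at -0.08 (edgeR adjusted p = 0.832). Vimentin (VIM), the mesenchymal filament protein, was at 733.2 and 936.1 CPM against 1262, 1129 and 1408 CPM (log2 fold change 0.60, edgeR adjusted p = 0.111), without overlap between groups. VIM shares 30.0% of its exon bases with the opposite-strand gene VIM-AS1, 7608 bases from the 3′ end of VIM. VIM-AS1 had 12 to 60 reads per library, against 2993 to 12331 for VIM. Of 15 keratin and desmosome partners, 0 rose and 2 fell, against 22.6% of all genes called. Stratifin (SFN), a 14-3-3 protein that binds KRT18, fell from 283.4 and 208.7 CPM to 103.0, 86.0 and 80.8 CPM (log2 fold change -1.45, SE 0.22, edgeR adjusted p = 0.0159). Trichoplein (TCHP), a keratin-binding protein, fell by 1.02 on the log2 scale (edgeR adjusted p = 0.0295).

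None of 13 epithelial transcription and splicing factors passed edgeR's threshold, against 22.6% of all genes (1 had an unadjusted p under 0.05, and DESeq2 called 1, ELF1, adjusted p = 0.0399). Of 6 tested repressors of epithelial genes, among them the SNAI and ZEB families named above, 1 was called, against the same 22.6%. ZEB2 fell from 229.5 and 117.8 CPM to 56.5, 60.8 and 54.8 CPM (log2 fold change -1.60, SE 0.29, edgeR adjusted p = 0.0203, -1.04 without control 1). SNAI1 was at 0.490 and 1.49 CPM against 2.76, 3.08 and 3.07 CPM, and did not pass (log2 fold change 1.44, edgeR adjusted p = 0.101).

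**Figure D5:**
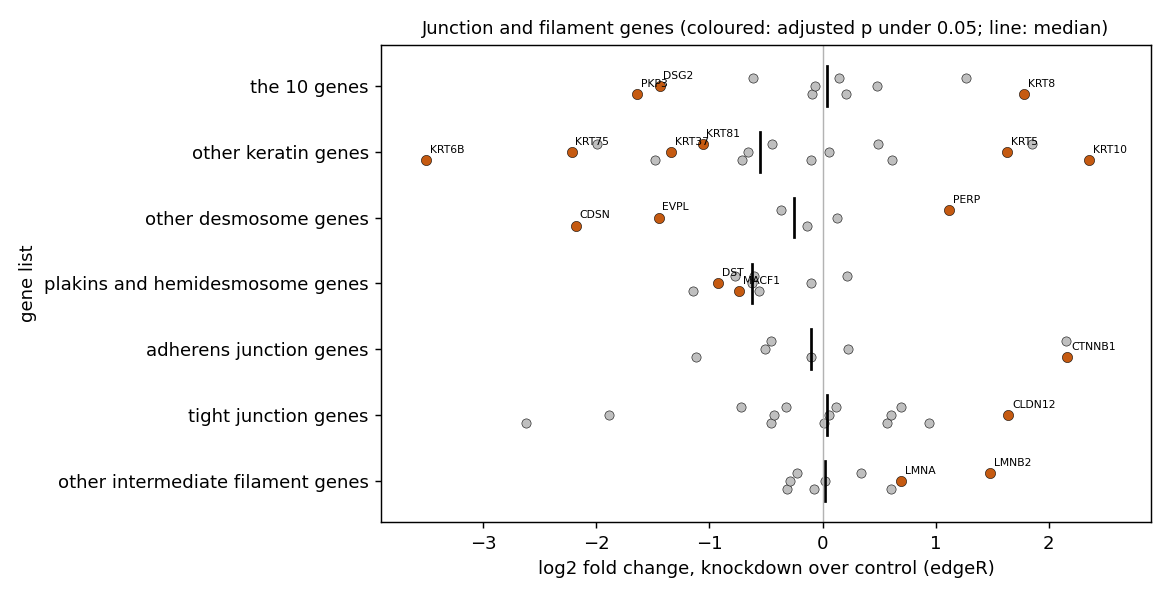
Log2 fold change, knockdown over control, of every tested gene in 7 lists of filament and junction genes, 1 point per gene (the 10 genes first), coloured and named where the edgeR adjusted p was under 0.05, with a line at each list's median. The called plakins DST and MACF1 lie below 0, and the called junction and lamin genes CTNNB1, CLDN12, LMNA and LMNB2 lie above it.

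Over the 5 libraries, the genes whose mean-centred log2 CPM lay nearest to that of KRT8 were BDH1, BCAR3 and AP3M1, with root mean square differences of 0.0859, 0.106 and 0.127, among tested genes averaging 4 or more in log2 CPM. Within the 10 genes, KRT19 and KRT80 were nearest to each other (0.158), and the gene nearest to KRT8 was PKP2, at 0.664. The distances to BDH1, BCAR3 and AP3M1 are the smallest over a far larger set of genes, so they cannot be compared directly with 0.664. DSC2 (0.769, to JUP) and JUP (0.620, to KRT18) also had no close match within the 10. The nearest to PKP3 was DSG2 (0.484), and the nearest to DSG2 was DSP (0.476). These distances rest on 5 libraries and describe a likeness only.

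Set beside these fits, the authors' deposited table gave log2 fold changes of 1.76 for KRT8 (SE 0.36, adjusted p = 2.68e-05), -1.66 for PKP3 (SE 0.33, adjusted p = 1.42e-05), -1.48 for DSG2 (SE 0.50, adjusted p = 0.0161) and -0.63 for DSP (SE 0.25, adjusted p = 0.0442). By the authors' deposited table, then, 4 of the 10 genes were under 0.05, against 25.3% of the 16104 genes with an adjusted p. The remaining 6, KRT18, KRT19, KRT80, DSC2, JUP and PKP2, had adjusted p values of 0.153 to 0.858 in the authors' deposited table.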

How the data were processed

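The deposited counts, 1 table per library, were whole reads per gene from QuantSeq 3′ libraries, made by the authors with featureCounts 1.6.2 over exons of hg38, with overlapping features each counted and no strand option, per the file headers. STAR 2.7 and DESeq2 1.22 are named in the submitters' processing notes. The authors' deposited table of their comparison gave log2 fold changes, p-values, a test-statistic score and a mean normalized signal. The score was not used. Its direction is not stated, and its fold changes correlated at 0.999 across genes with knockdown over control as fitted here.

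Counts were scaled by TMM, filtered with filterByExpr (minimum count 10) and fitted in edgeR 4.0.16 (R 4.3.3) for its quasi-likelihood test, with Benjamini-Hochberg adjustment over 14536 genes at 0.05. The 2 control and 3 knockdown libraries entered without a block. Alternatives used DESeq2 1.42.0, limma-voom (limma 3.58.1), other scalings and filters, a replicate block, and each library left out. On simulated counts for this comparison (13931 genes, 13739 of them unchanged), 61.1% of 95 genes changed 4-fold were called. Of 97 changed 2-fold, 2.06% were called, and there was 1 false call. The simulation changed few genes, whereas 3282 of 14536 were called in the data. A call in the simulation therefore needed a smaller unadjusted p than a call in the data. Its shares therefore do not give what the fit to the data misses. Counting intervals are exact, at 95%, and cover counting error only. A count of 0 was given a limit of 3 reads.

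Besides the 10 genes, AKAP12 and overlapping genes, the text names up to 4 genes with the smallest edgeR p in each list, up to 6 other keratins by the same rule, and the 3 genes nearest to KRT8. CDH1, EPCAM, VIL1, KRT6A, KRT14, KRT20 and LMNB1 were named after their values were seen or as cell type checks. The members and lists were chosen with earlier results of these data known.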

Additional observations from a re-analysis of the deposited data

How the results depend on the processing

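Of 126 values of the 10 genes under the alternatives, 98 kept their direction and side of the threshold, 15 were no longer called, 5 became called and 8 changed sign. Over all genes 0 to 8811 were called with each library left out in turn (0 to 4625 higher, 0 to 4186 lower), and 0 to 7 of the 10. With 1 control left, the spread comes from the knockdown libraries, so these larger counts assume that the lone control varies like them. The largest count of the 10 includes DSC2 and JUP without control 2, which are not among the 126 values. With library size only, 982 genes were lower. With the replicate number as a block, 210 genes were called (185 higher, 25 lower) (1.44% of genes tested) and 0 of the 10, where 3 had an unadjusted p under 0.05: KRT8 was 1.55 (edgeR adjusted p = 0.0790), PKP3 -1.46 (0.0770) and DSG2 -1.32 (0.173), while KRT10 kept its call (0.0419). Across genes, deviations from the group mean correlated at -0.05 and -0.08 between libraries with the same number. With 2 controls, the deviations of 1 mirror those of the other, so these values cannot show whether same-numbered libraries were paired.

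The log2 fold change of AKAP12 passed by DESeq2 (-1.09), by limma-voom (-0.98), without a filter (-0.996), with a stricter filter (-1.06) and without TERT and short genes (-1.04). It missed with RLE scaling (-1.09, edgeR adjusted p = 0.0505), with library size only (-0.79, 0.0716) and with the replicate block (-0.93, 0.298). It also missed in every fit without a knockdown library. The AKAP12 value ran from -1.42 to -0.52 with each library left out. Signs changed with library size only for KRT19 (0.14) and KRT80 (0.12). With each library left out, KRT18 ran from -0.33 to 0.86, KRT19 from -0.16 to 0.040, KRT80 from -0.23 to 0.041, DSC2 from -0.59 to 0.49 and the log2 ratio of DSG2 to DSC2 from -6.12 to 0.087. The cause was not tested. For DSC2 and JUP no fold change is given without control 2, because control 1 had 0 and 3 reads, and the stricter filter left both out. Their low counts limit what this depth can show.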
